A study of Mus musculus with 6 samples.

Results

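Antiviral interferon-stimulated genes were followed in myeloid cells of the mouse pancreas after an injection of WGP, whole β-glucan particles from the yeast Saccharomyces cerevisiae. The members are 40 genes given as a list of symbols and looked up by gene ID among the 21780 genes that were counted. All 40 were found, and all 40 were among the 14429 protein-coding genes that passed the filter on low counts and were tested. The list was put together with results of these data known, so its overall direction is given as counts and a median, without a test of the list as a whole. The mice were wild-type C57BL/6J animals of both sexes, 6 to 8 weeks old. They received either a single intraperitoneal dose of 1 mg of WGP or the vehicle PBS, and 7 days later viable pancreatic cells positive for CD45 and CD11b were collected by sorting. Each group was sequenced as 3 libraries, and the study describes each sample as coming from a separate animal within 1 experiment, so n = 3 counts mice.

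Interferons are secreted proteins that warn cells of infection. Type I interferons such as interferon-β bind the receptor made of IFNAR1 and IFNAR2, whose JAK1 and TYK2 kinases activate a complex with STAT2 and IRF9 that binds a promoter element called ISRE. Interferon-γ uses another receptor, IFNGR1 with IFNGR2, and acts mostly on a different element called GAS. The genes switched on downstream include proteins that sense foreign RNA or DNA, degrade or edit it, starve a virus of nucleotides, or block its entry and exit at membranes. Macrophages and monocytes keep a measurable level of many of these proteins without infection.

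The promoters show which elements the members carry close to their start. RefSeq promoters of the GRCm38.p6 build, running from 250 bases before to 50 bases after the start, were at hand for 32 of the 40 members. The ISRE core was searched as GAAANNGAAA on both strands, and it was present in 15 of these 32 genes, or 46.9%. It was present in 3.99% of all 27025 genes with a RefSeq promoter. The GAS core, TTCNNNGAA, reads the same on both strands and was present in 10 of the 32 members (31.3%) and in 9.55% of all genes. Both cores were found in 4 members, and in 2 of these they overlapped. A match is a description of these letters, not a measured binding site. The stretches below are 140 bases that end at the RefSeq start or, for Ifit1 and Oas3, 18 and 2 bases before it, where the GENCODE gene begins. They are written 5′ to 3′ on the gene's own strand, with each ISRE core in capitals. The first 6 genes are shown because they carry the core in this stretch, in 1 or several copies and on either strand. Among them are Isg15, Ifit1, Oas3 and Oas1a, which were higher after WGP, and Bst2, which was not called.
Isg15, chr4:156200819-156200958, minus strand: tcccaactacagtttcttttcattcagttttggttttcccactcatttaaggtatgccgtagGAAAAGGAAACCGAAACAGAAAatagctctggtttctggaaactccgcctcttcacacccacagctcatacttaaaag
Ifit1, chr19:34640731-34640870, plus strand: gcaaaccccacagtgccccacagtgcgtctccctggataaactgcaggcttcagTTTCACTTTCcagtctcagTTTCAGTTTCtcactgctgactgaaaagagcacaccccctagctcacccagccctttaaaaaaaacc
Oas3, chr5:120777662-120777801, minus strand: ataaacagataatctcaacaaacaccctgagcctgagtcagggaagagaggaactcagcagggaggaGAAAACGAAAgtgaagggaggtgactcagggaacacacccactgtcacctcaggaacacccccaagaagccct
Oas1a, chr5:120907526-120907665, minus strand: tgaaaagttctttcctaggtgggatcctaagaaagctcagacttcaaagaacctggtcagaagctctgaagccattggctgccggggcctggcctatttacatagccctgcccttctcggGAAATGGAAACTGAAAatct
Rsad2, chr12:26456453-26456592, minus strand: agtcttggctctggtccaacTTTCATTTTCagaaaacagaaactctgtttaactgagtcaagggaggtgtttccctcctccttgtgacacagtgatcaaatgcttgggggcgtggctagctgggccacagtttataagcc
Bst2, chr8:71537473-71537612, minus strand: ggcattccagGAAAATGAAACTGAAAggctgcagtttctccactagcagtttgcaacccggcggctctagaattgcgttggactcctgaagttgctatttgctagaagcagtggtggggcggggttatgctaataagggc

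The other two stretches belong to Oasl2 and Oasl1, neighbours on chromosome 5 that moved in opposite directions, and neither window held the ISRE core as spelled above.
Oasl2, chr5:114896794-114896933, plus strand: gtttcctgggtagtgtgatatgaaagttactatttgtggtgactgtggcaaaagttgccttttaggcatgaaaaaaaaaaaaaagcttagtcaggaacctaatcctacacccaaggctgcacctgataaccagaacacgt
Oasl1, chr5:114923100-114923239, plus strand: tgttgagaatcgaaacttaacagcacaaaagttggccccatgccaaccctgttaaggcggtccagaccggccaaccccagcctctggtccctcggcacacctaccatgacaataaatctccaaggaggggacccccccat

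At 7 days after WGP most of the antiviral genes stood above their level after PBS. Levels are CPM, the counts per 1e6 reads of a library, scaled by the TMM method. A gene was called when its change was at least 1 on the log2 scale in either direction and edgeR's quasi-likelihood test gave a p, adjusted by the method of Benjamini and Hochberg over all genes tested, that did not exceed 0.05. Of the 40 members 24 were called higher, against 4.53% of all genes tested. The single member called lower was Oasl1, against 4.96% of all genes tested. At the adjusted p alone 30 members were higher (7.54% of all genes) and 1 was lower (6.81% of all genes). Every WGP library lay above every PBS library for 34 members, which holds for 16.0% of all genes tested, and below for 1 member (16.1% of all genes). The median log2 fold change of the members was 1.17, that is 2.25-fold, with the middle of the list between 0.79 and 1.65. The median over all genes tested was -0.05.

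**Figure D1:**
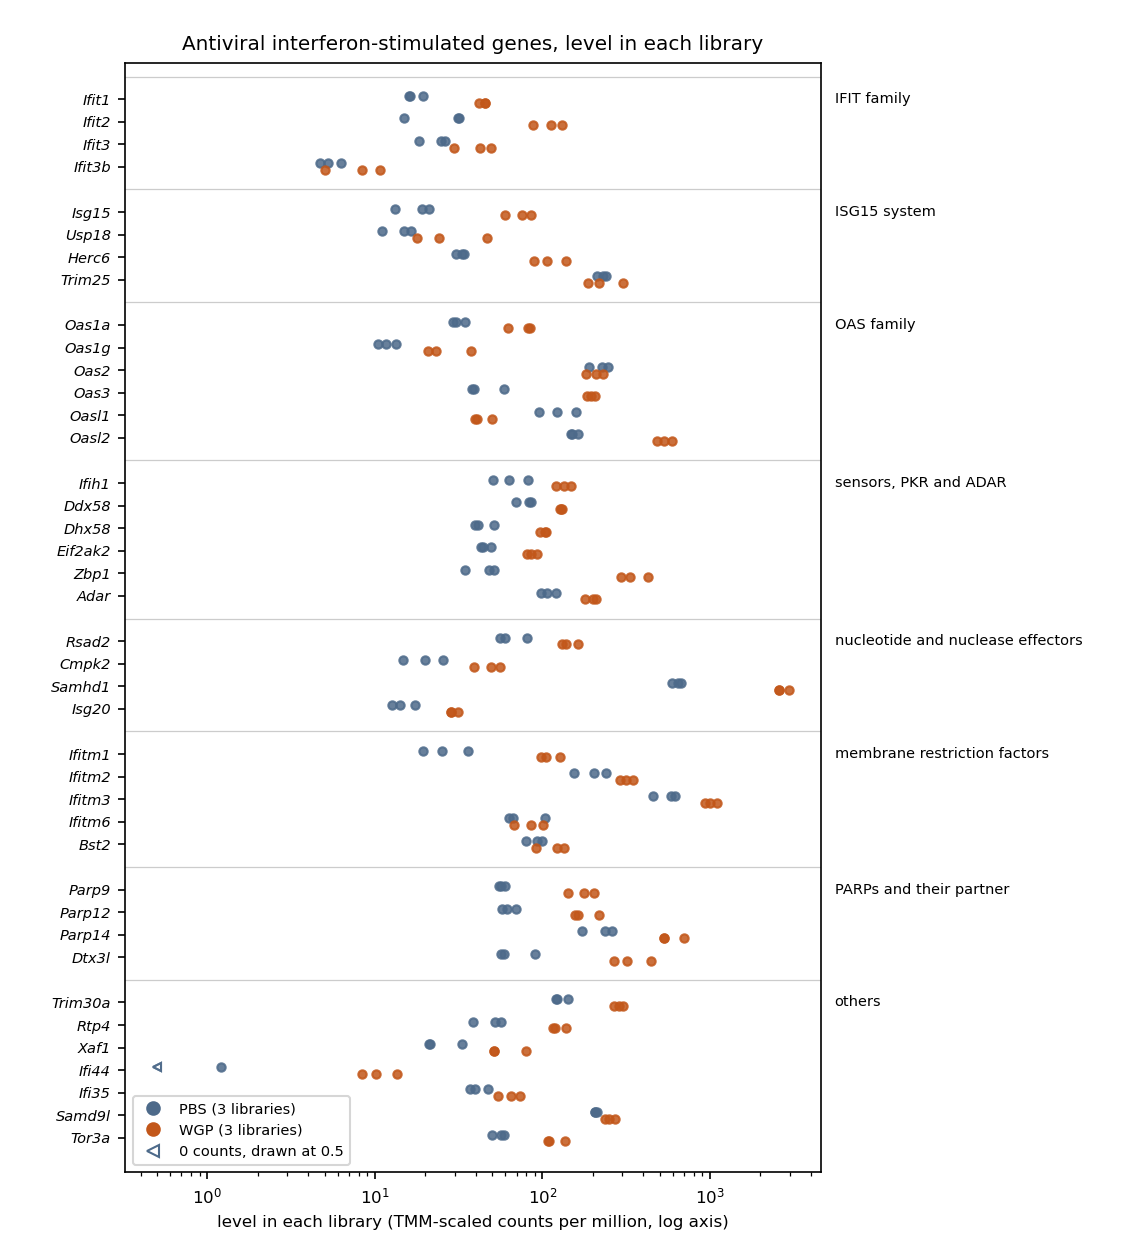
Level of each of the 40 members in each library, in TMM-scaled CPM on a log axis. Blue points are the 3 PBS libraries and orange points the 3 WGP libraries, genes are grouped by role, and open triangles mark libraries with 0 counts, drawn at 0.5. For 34 genes all orange points lie to the right of all blue points, and for Oasl1 they lie to the left.

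The 6 libraries held between 35334645 and 43341834 counts. Of the members 39 had at least 100 counts in every library, and the median count of a member was 3242. The commonest low count of a library was 19 to 41 reads, so a low count can stem from few molecules. Counts of 4 Y-linked genes were 8972 and 10063 in PBS replicates 2 and 3 and 0 or 1 in the other libraries. The groups were thus unbalanced in Y-linked counts, and the labels give no sex per library. Set against PBS replicate 1 alone, every WGP library was higher for 36 of the 40 members, against 29.1% of all genes tested, and lower for 2, against 35.3%. The median log2 ratio to PBS replicate 1 was 1.24 over the 39 members with counts in it and -0.04 over the 12267 tested genes with counts on both sides. Fewer cells of a type and less RNA per cell cannot be told apart in sorted bulk samples. The summed level of 6 resident macrophage markers, such as Mrc1 and Lyve1, was 3575 to 9416 CPM after PBS and 500.1 to 717 CPM after WGP, and all 6 were called lower. That of 6 Ly6C-high monocyte markers was 699 to 1147 CPM after PBS and 3157 to 3561 CPM after WGP, with 4 called higher. The 6 myeloid genes of the sort summed to 9327 to 15382 CPM after PBS and 21656 to 22951 CPM after WGP, and 1 of them, Lyz2, was called higher. Without Lyz2 the sums overlapped, at 4394 to 7152 and 5999 to 6213 CPM. Ptprc and Itgam, the genes of CD45 and CD11b, passed the adjusted p upward (log2 fold change 0.71 and 0.79, adjusted p = 0.00725 and 0.00618). Csf1r (-0.31), Adgre1 (-0.43) and Cd68 (-0.02) did not pass it. All 3 B cell markers were called lower (252 to 1713 CPM after PBS, 49.97 to 107 CPM after WGP), as were all 4 acinar cell genes (657 to 2928 and 182 to 300.5 CPM). Plasmacytoid dendritic cell markers, from a cell type known for making interferon, summed to 47.0 to 102 CPM after PBS and 7.04 to 18.5 CPM after WGP, with 1 of 5, Siglech, called lower. Without Klk1, the most abundant of them in PBS replicate 2, the sums were 33.6 to 42.1 and 6.87 to 10.8 CPM. Klk1 was at 24.4, 60.2 and 13.4 CPM in the PBS libraries, in the same order as the acinar genes, and Ccr9 had a log2 difference of 0.25 (adjusted p = 0.909). The summed levels of the neutrophil markers (1883 to 4051 CPM after PBS, 2036 to 2299 CPM after WGP) and of the eosinophil markers (4.74 to 19.1 and 6.43 to 19.0 CPM) overlapped between the groups, as did those of the T cell markers (1.67 to 10.4 and 4.62 to 24.8 CPM) and of the NK cell markers (44.8 to 177 and 36.6 to 46.2 CPM). Within these lists Cxcr2 of the neutrophil markers was called higher (log2 fold change 1.30), and Mmp9 of the same list (-1.41) and the NK cell marker Gzma (-1.81) were called lower. Conventional dendritic cell markers summed to 143 to 194 CPM after PBS and 66.6 to 130 CPM after WGP, with 1 of 5 called lower. The part of these shifts in the values of the antiviral genes was not tested.

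**Figure D2:**
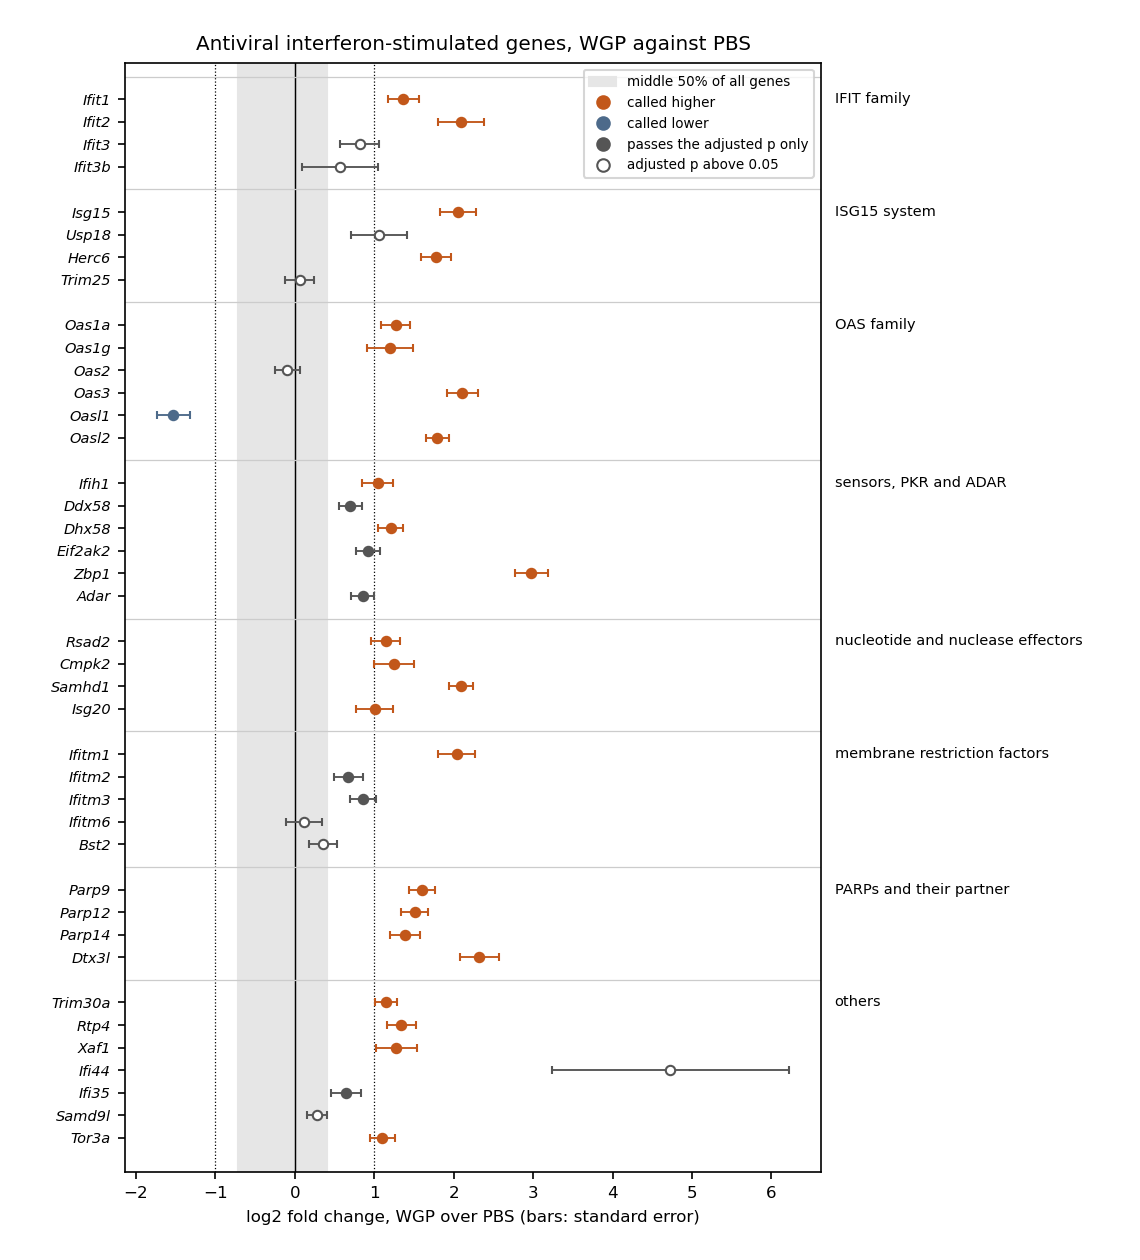
Log2 fold change of WGP over PBS for each member, with its standard error, from 3 libraries per group. Orange points are genes called higher, the blue point is the gene called lower, filled grey points passed the adjusted p but not the fold threshold drawn as dotted lines, open points did not pass the adjusted p, and the grey band holds the middle 50% of all genes tested. Of the 40 points 38 lie above 0.

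The IFIT proteins include IFIT1, which binds viral RNA that lacks the cap methylation of the cell's own mRNA. Their 4 genes lie in 1 cluster on the plus strand of chromosome 19, between 34550694 and 34650009, with Ifit1bl1 and Ifit1bl2 between them on the minus strand, and 2 of the 4 were called higher. Ifit2 stood at 31.2, 31.5 and 14.8 CPM in the PBS libraries and at 87.8, 130.2 and 113 CPM in the WGP libraries. The groups did not overlap, and the log2 fold change was 2.09 ± 0.29 (SE, n = 3 per group, adjusted p = 0.000829 by edgeR). Ifit1, which recognises the unmethylated cap itself, was measured at 16.1, 19.4 and 16.0 CPM after PBS and 42.0, 45.3 and 45.4 CPM after WGP. Its 3 WGP libraries were nearly level with one another, and it rose by 1.37 ± 0.20 on the log2 scale (adjusted p = 0.00111). Ifit3 had values of 26.1, 24.7 and 18.3 CPM after PBS and 29.6, 42.4 and 49.5 CPM after WGP, a log2 difference of 0.82 ± 0.25 with an adjusted p of 0.0541. Its near-copy Ifit3b, the lowest of the family per length, was at 4.68, 5.24 and 6.28 CPM against 5.02, 8.39 and 10.7 CPM, and the groups overlapped (log2 difference 0.57 ± 0.48, adjusted p = 0.478). Of all 75-base stretches of the Ifit3 transcripts 41.1% also occur in Ifit3b, so the split of reads between this pair is uncertain.

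ISG15 is a small protein that is attached to other proteins much as ubiquitin is, with HERC6 as the main mouse ligase and USP18 as the enzyme that removes it. Isg15 was at 19.0, 21.0 and 13.2 CPM after PBS and at 59.9, 85.2 and 75.6 CPM after WGP, which is 4.15-fold. All WGP libraries lay far above the PBS libraries, and the log2 fold change was 2.05 ± 0.23 (adjusted p = 0.000255). Herc6 followed with 33.9, 32.9 and 30.3 CPM against 88.8, 138 and 107 CPM, a log2 fold change of 1.78 ± 0.19 (adjusted p = 0.000176). Usp18, which also damps signalling at the type I interferon receptor, was at 14.9, 16.4 and 11.0 CPM after PBS and 24.2, 46.3 and 17.8 CPM after WGP. Here the WGP libraries spread widely, with replicate 2 far above the others, and the log2 difference of 1.06 ± 0.36 had an adjusted p of 0.0785. Without WGP replicate 2 the log2 difference of Usp18 was 0.58 (adjusted p = 0.296), and without WGP replicate 3 it was 1.32 (adjusted p = 0.0399). Trim25, a ubiquitin ligase that activates the RNA sensor RIG-I, had 211, 239 and 228 CPM after PBS and 302, 187 and 219 CPM after WGP. The groups overlapped and the log2 difference was 0.06 ± 0.18 (adjusted p = 0.885), with a negative sign when counts were scaled by library totals alone or WGP replicate 1 was left out.

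The OAS family held both the genes that rose and the single gene that fell. OAS enzymes make a short chain of linked adenylates when they meet double-stranded RNA, which switches on the nuclease RNase L, while OASL1 lacks that enzyme activity. Oas3 was at 58.9, 38.9 and 37.7 CPM after PBS and at 184, 195 and 206 CPM after WGP, 4.32-fold higher, for a log2 fold change of 2.11 ± 0.20 (adjusted p = 7.59e-05). Oas1a was at 30.6, 34.7 and 29.3 CPM against 82.1, 62.0 and 84.3 CPM (log2 fold change 1.27 ± 0.18, adjusted p = 0.00114). Its neighbour Oas1g was at 13.4, 11.6 and 10.4 CPM against 23.3, 20.6 and 37.2 CPM. The Oas1g groups did not overlap and the log2 fold change was 1.20 ± 0.29 (adjusted p = 0.0200), but the call was lost when PBS replicate 2 was left out (adjusted p = 0.0719), likewise for PBS replicate 3 (0.0604) and WGP replicate 3 (0.112), and with a term for Y-linked counts (0.174). Oas1a shares 47.6% of its 75-base stretches with Oas1g, and Oas1g 36.9% with Oas1a, so reads of this pair cannot be fully told apart. Oas2, which lies directly beside Oas3 on the same strand with a gap of 3244 bases, had 191, 226 and 246 CPM after PBS and 207, 183 and 230.3 CPM after WGP. The Oas2 groups overlapped, with a log2 difference of -0.09 ± 0.16 (adjusted p = 0.765), whose sign turned positive (0.12) when a term for Y-linked counts was added to the fit.

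The neighbours Oasl2 and Oasl1 moved apart. Oasl2 was at 164, 148 and 151 CPM after PBS and 481, 592 and 532 CPM after WGP, and rose by 1.79 ± 0.15 on the log2 scale (adjusted p = 3.52e-05). Oasl1, known for holding down the translation of Irf7 mRNA, was at 95.7, 158 and 121 CPM after PBS and only 39.3, 50.2 and 40.5 CPM after WGP. No WGP library of Oasl1 reached the lowest PBS library, and the log2 fold change was -1.53 ± 0.20 (adjusted p = 0.000688). These genes lie on the plus strand of chromosome 5, Oasl2 at 114896936 to 114912234 and Oasl1 at 114923240 to 114937915, with 11005 bases between them, and share no 75-base stretch with another gene. An antisense gene overlaps Oasl1, and the strand setting of the counting is not given in the sources used here. The ratio of Oasl2 to Oasl1 within a library does not depend on scaling. It was 1.71, 0.938 and 1.24 in the PBS libraries and 12.2, 11.8 and 13.1 in the WGP libraries, 9.83 times higher by the mean of the log2 ratios. An exact two-sided permutation test gave p = 0.1, the smallest value possible with 3 libraries against 3, and this pair was chosen after its values were seen.

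**Figure D3:**
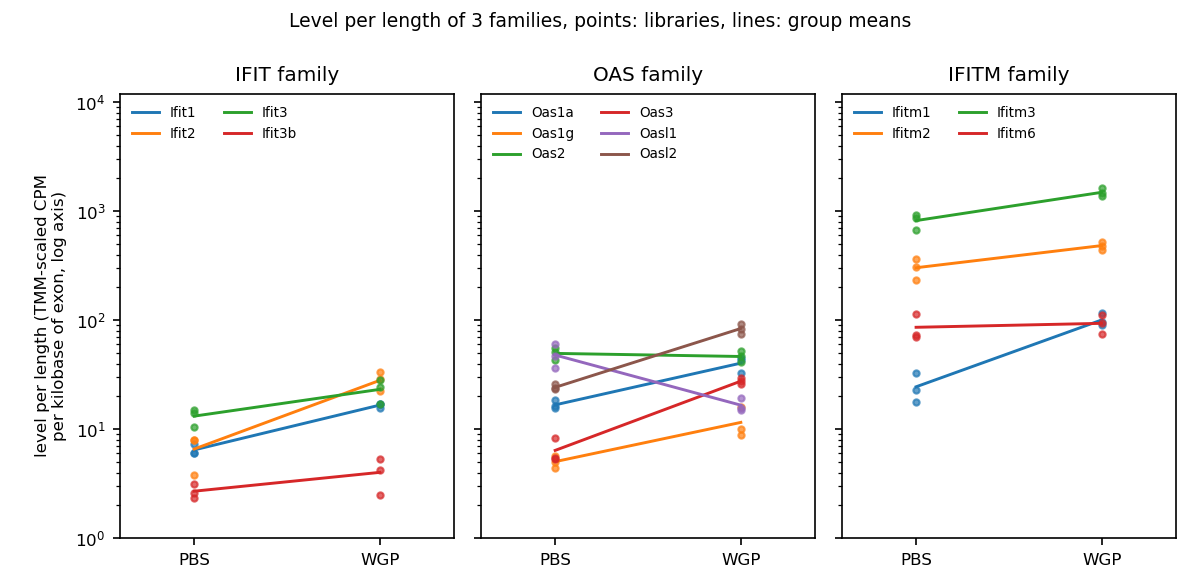
Level per length, in TMM-scaled CPM per kilobase of exon on a log axis, for the IFIT, OAS and IFITM families after PBS and after WGP. Points are the 3 libraries of a group and lines join the group means of a gene. Within the OAS family Oasl1 falls from 47.9 to 16.6 while Oasl2 climbs from 24.2 to 83.9 and Oas2 is at 49.6 and 46.5.

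In the group of nucleic acid sensors with PKR and ADAR all 6 genes passed the adjusted p in the upward direction, and 3 of them were also past the fold threshold. Zbp1, a sensor of Z-form RNA and DNA that can start necroptosis, was the called member with the largest change. It was at 51.1, 47.7 and 34.6 CPM after PBS and at 293, 428 and 331 CPM after WGP, which is 7.89-fold, for a log2 fold change of 2.98 ± 0.21 (adjusted p = 1.86e-05). The RIG-I-like receptors recognise viral RNA in the cytoplasm. Dhx58, encoding the receptor LGP2, was at 41.4, 51.1 and 39.5 CPM against 96.0, 105 and 104 CPM (log2 fold change 1.21 ± 0.16, adjusted p = 0.000669). Ifih1, encoding MDA5, was at 50.7, 81.8 and 62.9 CPM against 134, 148 and 120 CPM. The Ifih1 groups were well apart, and the log2 fold change of 1.04 ± 0.19 (adjusted p = 0.00451) sat just inside the fold threshold and fell to 0.89 without PBS replicate 1, 0.97 without WGP replicate 2 and 0.95 with library totals alone. Ddx58, encoding RIG-I, was at 85.6, 83.3 and 69.0 CPM after PBS and 129, 128 and 130.3 CPM after WGP, and rose by 0.70 ± 0.14 on the log2 scale (adjusted p = 0.00848, and 0.0805 with a term for Y-linked counts). Eif2ak2, encoding the kinase PKR that stops translation, was at 43.1, 44.3 and 49.3 CPM against 81.0, 85.8 and 92.6 CPM (0.92 ± 0.15, adjusted p = 0.00253). Adar, the enzyme that edits adenosine to inosine in double-stranded RNA, rose by 0.86 ± 0.15 (adjusted p = 0.00301), from a mean of 108 to 196 CPM. Part of Adar, 13.1% of its 75-base stretches, overlaps Chrnb2 on the opposite strand.

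All 4 genes that act on nucleotides or nucleic acid ends were called higher. Samhd1, which destroys the deoxynucleotides that reverse transcription needs, was at 594, 673 and 647 CPM after PBS and 2586, 2969 and 2594 CPM after WGP. The groups were far apart with little spread, and the log2 fold change was 2.09 ± 0.15 (adjusted p = 1.88e-05). Rsad2 encodes viperin, which turns CTP into a chain terminator for viral polymerases, and Cmpk2 encodes a mitochondrial nucleotide kinase. Their starts lie 12752 bases apart on chromosome 12 and point away from each other. Rsad2 was at 55.8, 80.4 and 59.4 CPM against 163, 138 and 131 CPM (1.14 ± 0.18, adjusted p = 0.00183). Cmpk2 was at 25.6, 19.97 and 14.7 CPM against 39.0, 55.4 and 49.2 CPM (1.25 ± 0.25, adjusted p = 0.00713), and was not called with a term for Y-linked counts (0.90, adjusted p = 0.102). The ratio of Rsad2 to Cmpk2 was 2.18, 4.03 and 4.04 in the PBS libraries and 4.19, 2.50 and 2.65 in the WGP libraries, so the ranges overlapped. Isg20, an RNA exonuclease, was at 17.3, 14.1 and 12.6 CPM after PBS and 28.6, 28.3 and 31.4 CPM after WGP. It stood right at the fold threshold, for a log2 fold change of 1.01 ± 0.23 (adjusted p = 0.0151), and lost its call under 9 of 16 alternative fits. Among these were RLE (0.9974) and upper-quartile scaling (0.9743), library totals alone (0.8966), the DESeq2 Wald test (0.9976) and the fits without PBS replicate 2 (0.98, adjusted p = 0.0605), PBS replicate 3 (0.91, 0.0470), WGP replicate 1 (1.03, 0.0508) or WGP replicate 3 (0.96, 0.0662) and with a term for Y-linked counts (0.77, 0.157).

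Of the 5 membrane restriction factors 3 passed the adjusted p upward and 1 was called, and their median log2 fold change of 0.68 was the smallest of the 8 role groups. IFITM proteins stiffen membranes and hinder virus fusion, and Ifitm3 and Ifitm2 held ranks 1 and 2 of the 40 members per kilobase of exon in both groups. Ifitm3 was at 459.8, 622 and 587 CPM after PBS and 1005, 1100.2 and 928 CPM after WGP, and rose by 0.86 ± 0.16 on the log2 scale (adjusted p = 0.00517). Ifitm2 was at 154, 202 and 239.6 CPM against 315, 345 and 290.5 CPM (0.68 ± 0.18, adjusted p = 0.0298). Its adjusted p was 0.0991 without PBS replicate 2 and 0.0852, 0.0817 and 0.0624 without WGP replicates 1, 2 and 3, and 42.0% of its 75-base stretches also occur in other genes, mainly in Gm45717, which overlaps it on the same strand. Only Ifitm1 of this group was called, at 35.7, 19.5 and 25.2 CPM after PBS and 105, 127 and 98.0 CPM after WGP. All WGP libraries of Ifitm1 lay above the PBS libraries and the log2 fold change was 2.04 ± 0.23 (adjusted p = 0.000271), which took it from rank 11 to rank 5 per length. Ifitm6, another member of the family, was at 104, 63.4 and 66.2 CPM against 101, 85.4 and 67.4 CPM. Its groups overlapped and its log2 difference of 0.12 ± 0.23 (adjusted p = 0.799) changed sign without PBS replicate 2 or without WGP replicate 1. Bst2 encodes tetherin, which holds budding virus at the cell surface. Its values were 80.2, 92.9 and 98.8 CPM after PBS and 91.1, 122 and 134 CPM after WGP, with overlapping groups (log2 difference 0.35 ± 0.18, adjusted p = 0.246), although its promoter holds the ISRE core shown above.

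The ADP-ribosyltransferases Parp9, Parp12 and Parp14 and the PARP9 partner Dtx3l were all called higher, and all 4 were highest in WGP replicate 2. Dtx3l, a ubiquitin ligase that acts together with PARP9, was at 56.8, 90.6 and 58.9 CPM after PBS and 267, 445 and 321 CPM after WGP. The lowest WGP library of Dtx3l was well above the highest PBS library, for a log2 fold change of 2.32 ± 0.24 (adjusted p = 0.000161). Parp9 was at 56.7, 54.9 and 59.5 CPM against 142, 202 and 176 CPM (1.60 ± 0.16, adjusted p = 0.000142). Parp9 and Dtx3l lie head to head on chromosome 16 on opposite strands and their annotated ends overlap by 682 bases, which puts 6.63% of the 75-base stretches of Parp9 also in Dtx3l. Parp12, a zinc-finger protein, was at 57.4, 61.6 and 69.6 CPM against 163, 217 and 156 CPM (1.51 ± 0.17, adjusted p = 0.000269). Parp14 was at 173, 261 and 238 CPM against 528, 699 and 531 CPM (1.39 ± 0.19, adjusted p = 0.000884). For each of these genes the PBS and WGP libraries were clear of one another.

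Of the 7 remaining members 4 were called higher. Rtp4, an interferon target that restricts flaviviruses, was at 38.5, 56.9 and 51.9 CPM after PBS and 115, 139 and 119 CPM after WGP (log2 fold change 1.34 ± 0.18, adjusted p = 0.000738). Xaf1, a promoter of cell death, was at 21.4, 21.0 and 33.3 CPM against 51.6, 51.1 and 80.3 CPM (1.28 ± 0.26, adjusted p = 0.00777). Trim30a, known as a brake on Toll-like receptor signalling, was at 123, 121 and 143 CPM against 285, 301 and 268 CPM (1.14 ± 0.14, adjusted p = 0.000409). Tor3a was at 50.2, 56.5 and 58.7 CPM against 110, 137 and 108 CPM (1.10 ± 0.16, adjusted p = 0.00109), and it fell short of the fold threshold without WGP replicate 2 (0.98) and with library totals alone (0.9992). These 4 genes were all without overlap between the groups. Ifi44 had the lowest level per length of the list. It had 0 counts in PBS replicates 1 and 2, 1.20 CPM (49 counts) in PBS replicate 3 and 10.2, 8.32 and 13.6 CPM in the WGP libraries. The log2 difference of Ifi44 was 4.73 with a standard error of 1.50, and its adjusted p of 0.0631 became 0.000454 without PBS replicate 3. Ifi35 had a log2 fold change of 0.64 ± 0.18, and its adjusted p of 0.0427 did not hold: it was 0.0516 to 0.173 when any library other than PBS replicate 1 was left out, 0.0548 with upper-quartile scaling, 0.106 with library totals alone and 0.302 with a term for Y-linked counts. Samd9l, an inhibitor of translation in infected cells, was at 206, 207 and 211 CPM after PBS and 237, 270.3 and 251 CPM after WGP. All WGP libraries of Samd9l were higher, but the log2 difference was 0.28 ± 0.13 (adjusted p = 0.214).

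The size of the change can be read against the promoter elements shown above. The median log2 fold change was 1.04 for the members with an ISRE core in the window and 1.28 for those with a promoter but no core. Of the 18 genes with a promoter that were called higher 8 held the core, and of the 13 that were not called 7 did. The GAS core was in 4 of the 18 and in 6 of the 13. Counted from the RefSeq start, the core of Isg15 occurred 3 times in overlapping steps from 78 to 66 bases before the start, that of Ifit1 at 104 and 85 bases, and that of Rsad2 at 120 bases. Ifit2 and Samhd1 held a GAS core and no ISRE core, at 241 and 235 bases before the start.

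**Figure D4:**
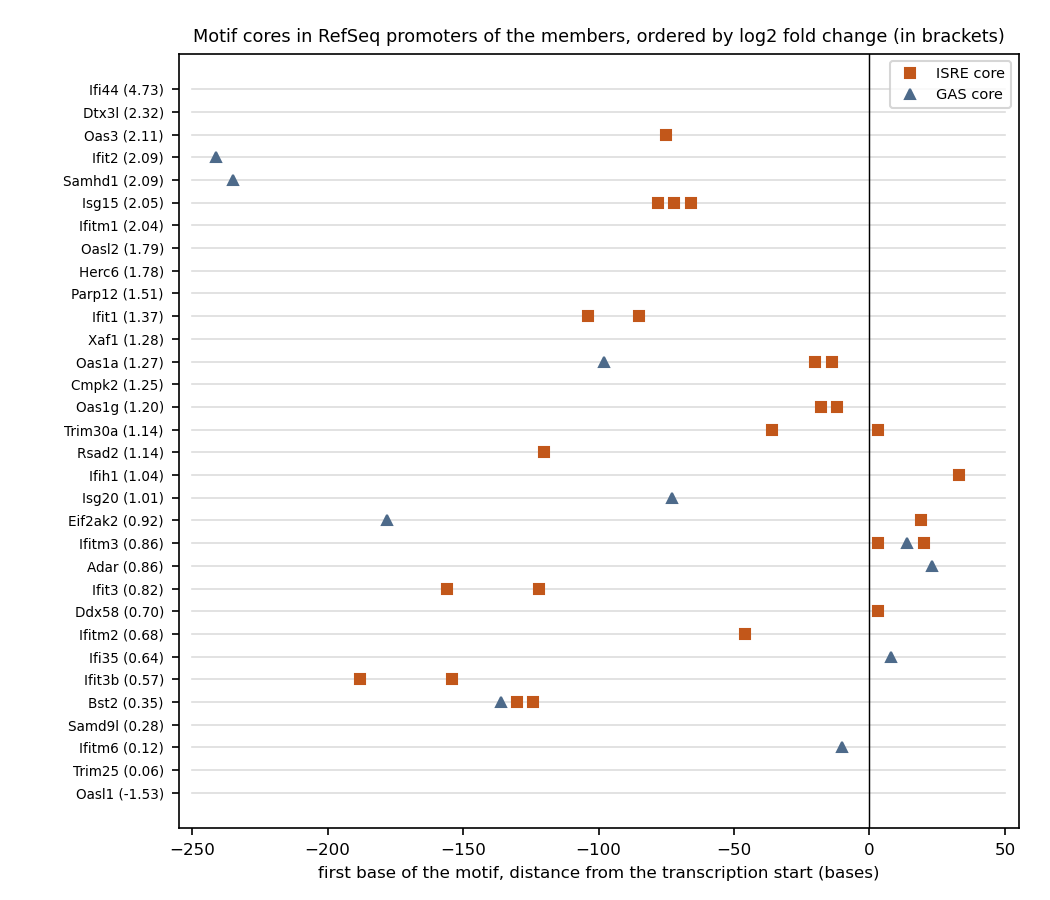
Position of each ISRE core (orange squares) and GAS core (blue triangles) relative to the transcription start, in bases, for the 32 members with a RefSeq promoter, which runs from 250 bases before to 50 bases after the start. Genes are ordered by log2 fold change of WGP over PBS, given in brackets; where a gene has several starts each match is placed from its own start. The 15 genes with an ISRE core lie scattered through the order.

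The pathway around these genes was measured with lists of ligands, receptors, signalling proteins and further interferon-stimulated genes. Of 24 ligand and receptor genes 17 had 0 counts in all 6 libraries, among them every interferon-α gene in the table. Ifnb1, encoding interferon-β, was at 9.78, 11.8 and 12.6 CPM in the PBS libraries and had 0 counts in every WGP library. A floor of 3 counts over the WGP group would put it 453.8-fold lower, which covers counting error only. That floor takes each read as a separate molecule, while the commonest low count of a library was 19 to 41 reads. The fold is therefore not a lower bound. Ifng, encoding interferon-γ, was at 12.3, 5.57 and 0 CPM after PBS and 1.00, 3.28 and 5.42 CPM after WGP, with overlapping groups (log2 difference -0.88 ± 1.39, adjusted p = 0.753). Receptor chains were higher after WGP: Ifngr2 at 91.4, 86.8 and 85.4 CPM against 249, 244 and 259.9 CPM (log2 fold change 1.51 ± 0.13, adjusted p = 5.44e-05), Ifnar2 by 0.85 ± 0.15 (adjusted p = 0.00422) and Ifnar1 by 0.60 ± 0.15 (adjusted p = 0.0191). The fourth chain that passed the test was Ifnlr1 (log2 fold change 1.85 ± 0.49, adjusted p = 0.0288), and Ifngr1 did not pass it (0.55 ± 0.21, adjusted p = 0.126). Ifng, Ifnlr1 and Ifngr1 were picked with their values in view.

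Of 14 genes of signalling and transcription 6 were called higher, 9 passed the adjusted p upward and none downward. Stat2 rose by 1.29 ± 0.14 on the log2 scale (adjusted p = 0.000225), while Irf9, which joins it in the ISRE-binding complex, had a log2 difference of 0.39 ± 0.16 (adjusted p = 0.143). Irf7 rose by 1.96 ± 0.15 (adjusted p = 2.74e-05) and Irf1, a transcription factor of early interferon responses, by 2.30 ± 0.24 (adjusted p = 0.000153). Upstream of interferon, 3 of 12 genes were called higher, 5 passed the adjusted p upward and 1 downward. Ikbke, a kinase that activates IRF3 and IRF7, rose by 3.15 ± 0.15 (adjusted p = 3.69e-06), Tmem173, encoding STING, by 1.35 ± 0.16 (adjusted p = 0.000272), Myd88 by 1.16 ± 0.14 (adjusted p = 0.000333) and Tbk1 by 0.71 ± 0.14 (adjusted p = 0.00534). The gene that passed downward was Tlr7, a receptor for single-stranded RNA (log2 fold change -0.93 ± 0.27, adjusted p = 0.0427). Irf9 and Tlr7 were picked with their values in view.

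**Figure D5:**
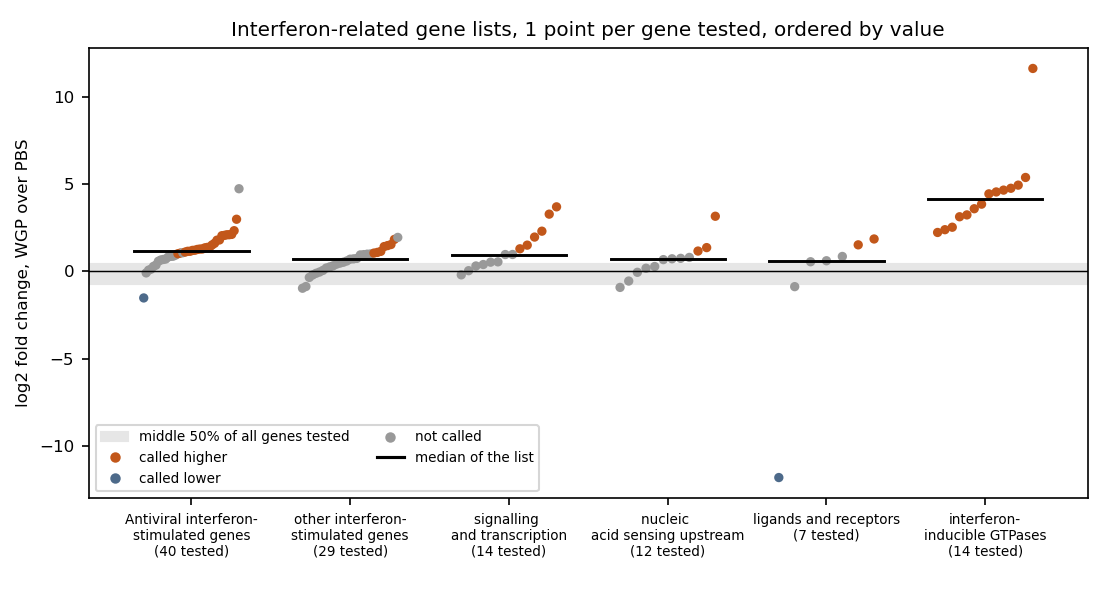
Log2 fold change of WGP over PBS for every tested gene of the antiviral list and of 5 related lists, 1 point per gene in order of value, with the list's median as a black line and the middle 50% of all genes tested as a grey band. The medians are 1.17 for the antiviral genes and 4.14 for the GTPases; values beyond 10 in either direction (Ifnb1, Tgtp1) come from groups at or near 0 counts and depend on the fit.

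Of 31 further interferon-stimulated genes outside the antiviral list 29 were tested, 7 of these were called higher and none lower, and their median log2 fold change was 0.69. Rnf213 rose by 1.53 ± 0.16 (adjusted p = 0.000158), Parp10 by 1.47 ± 0.18 (adjusted p = 0.000456), Parp11 by 1.41 ± 0.21 (adjusted p = 0.00140) and Znfx1, an RNA helicase sensor, by 0.99 ± 0.15 (adjusted p = 0.00162). At the adjusted p alone 11 were higher, and the helicase gene Ddx60 was lower (log2 fold change -0.97 ± 0.20, adjusted p = 0.00769). The dynamin-like antiviral gene Mx1 was at 41.5, 54.2 and 44.7 CPM after PBS and 80.2, 60.6 and 70.3 CPM after WGP. Its groups did not overlap, and the log2 difference was 0.59 ± 0.18 (adjusted p = 0.0568). Ddx60 and Mx1 were picked with their values in view. The interferon-inducible GTPases, which attack the vacuoles of intracellular microbes and are classic targets of interferon-γ, were all 14 called higher, with a median log2 fold change of 4.14. Gbp8 rose by 4.65 ± 0.22 (adjusted p = 3.69e-06), Gbp2 by 4.93 ± 0.35 (adjusted p = 1.86e-05) and Gbp4 by 4.75 ± 0.36 (adjusted p = 2.4e-05), while Tgtp1 had at most 0.0244 CPM in a PBS library and 27.6, 47.8 and 33.9 CPM after WGP. Shared sequence was not counted for the GTPase genes. Gbp8, Gbp9 and Gbp4 overlap on the minus strand of chromosome 5, and Igtp and Irgm2 on the plus strand of chromosome 11. The split of reads among GTPase genes is therefore uncertain. Of these GTPase genes 13 of 14 were highest in WGP replicate 2, where the median level was 1.96 times the mean of the other two WGP libraries. Of the 40 antiviral genes 23 were highest in that library, 14 in WGP replicate 3 and 3 in WGP replicate 1, and the same ratio had a median of 1.10. Of all 14429 genes tested 5246, 4141 and 5042 were highest in WGP replicates 2, 3 and 1, and the median ratio was 0.996.

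The order of the members per length shifted between the groups. Per kilobase of exon the mean level of Ifitm3 was 820.3 after PBS and 1491 after WGP, that of Ifitm2 303 and 484, and that of Samhd1 69.7 and 297. Zbp1 moved from rank 24 to rank 6 and Samhd1 from rank 5 to rank 3. Oasl1 went the other way, from rank 7 to rank 31, and Oas2 from rank 6 to rank 15, while Ifit3b and Ifi44 were the lowest members in both groups. Members in neighbouring ranks often did not differ beyond their spread. Within libraries, Oas3 stood to Oas2 at 0.309, 0.172 and 0.153 after PBS and 0.887, 1.07 and 0.896 after WGP in counts, and Ifitm1 to Ifitm6 at 0.343, 0.307 and 0.381 against 1.04, 1.49 and 1.45. For 7 of the 9 ratios that were computed the PBS and WGP libraries did not overlap and the exact two-sided permutation p was the smallest possible, 0.1, and all 9 pairs were chosen after their values were seen.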

How the data were processed

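The authors sequenced 10 ng of RNA per sample as single-end 75-base reads from poly-A libraries, on 1 flow cell, aligned them to mm10 (GRCm38.p6) with STAR 2.6 and deposited raw read counts per Ensembl gene from HTSeq 0.10.0. Annotation release, strand setting and handling of duplicates are not given in the sources used here. Symbols, coordinates and exon lengths came from GENCODE vM21 of the same build. Total counts ran from 35334645 to 43341834 per library.

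WGP was compared with PBS for protein-coding genes whose RLE-normalized counts reached a sum of 10 over the 6 libraries, in R 4.3.3 with edgeR 4.0.16 (TMM scaling, quasi-likelihood test, no block). Standard errors were obtained by dividing a log2 fold change by the square root of its F statistic. The script was tested on simulated data. The members and lists were chosen with earlier results of these data known. Values per library are given for called members, for the smallest change of each role group and for members whose call depends on a setting. From the other lists come the 4 genes with the smallest p and genes at 0 in 1 group. For 1 gene of these lists no values are given here. Same-numbered libraries did not deviate together (correlations of their deviations 0.0027, -0.0446 and 0.0105), and the labels give no pairing. Alternatives were RLE, upper-quartile and no scaling, the Wald test of DESeq2 1.42.0, limma 3.58.1 voom, other filters, all features, a replicate block, Y-linked counts as a covariate, a fold threshold of 2 on the log2 scale and each library left out. Shared sequence was counted for the members only, as 75-base stretches of a gene's transcripts found in another gene. Floors cover counting error only and take each read as a separate molecule.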

Additional observations from a re-analysis of the deposited data

How the results depend on the processing

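Of the 24 members called higher 19 were called under all 16 alternative fits, and Oasl1 was called lower in each of them. The number called higher was 21 to 25, and 26 to 31 members passed the adjusted p upward. Leaving out 1 library at a time gave 22 to 23 called higher, 1 called lower, 26 to 30 higher and 1 lower at the adjusted p alone, a median log2 fold change of 1.12 to 1.21, and 31 to 36 called genes in the 5 other lists (33 in the main fit). With a threshold of 2 on the log2 scale 7 members were called higher and 0 lower, and 19 genes of the other lists were called, since fewer genes pass a higher threshold. The share of all genes tested at that threshold is not given here, so these counts have no background beside them. Scaling by library totals alone shifted the median of all genes from -0.05 to -0.16 and that of the members to 1.07, and their difference was 1.22 under both scalings. Ifih1 (0.95), Tor3a (0.9992) and Isg20 (0.90) were then not called. With a term for Y-linked counts in the fit the members' median was 1.26 and 26 passed the adjusted p upward, Oas1g (adjusted p = 0.174), Cmpk2 (0.102) and Isg20 (0.157) were not called, and Eif2ak2, Ifitm2, Ifitm3 and Ifi44 were. In that fit only PBS replicate 1 was set against the WGP libraries, and the cause of these changes was not tested.

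Of the members, 3 changed sign, none of them called in any fit: Trim25 (-0.038 with library totals only, -0.15 without WGP replicate 1 and up to 0.21 without WGP replicate 2), Oas2 (0.12 with the Y-linked covariate) and Ifitm6 (-0.30 with that covariate, -0.0079 without PBS replicate 2, -0.028 without WGP replicate 1 and up to 0.38 without PBS replicate 1), and the cause was not tested. The replicate number as a block gave 25 members called higher, 1 lower and a median of 1.15, the added call being Ifi44 (log2 fold change 7.09, adjusted p = 0.0215), while Ifi35 no longer passed the adjusted p (0.0769). Same-numbered libraries did not deviate together, and whether they share a litter or a day is not given in the labels. Of the members 39 had at least 100 counts in every library, and counts of Ifi44 in the PBS libraries were 0, 0 and 49.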
